A study of Mus musculus with 6 samples.

Results

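This account sets the gene expression array labelled as melan-a cells with activated BRAF and SNAIL2 directly against the array labelled as the same cells with activated BRAF and ZEB2. These are 2 of the 6 arrays of the series, chosen by their titles, and each stands for its condition alone. Melan-a is an immortal pigmented line derived from epidermal melanoblasts of C57BL/6 mouse embryos. All 6 cultures carried delta-BRAF-ER, a form of the BRAF kinase that tamoxifen switches on. The 6 groups were BRAF activated with SNAIL2, BRAF activated with ZEB2, BRAF activated with TWIST1, BRAF activated with ZEB1, BRAF activated alone and BRAF not activated, below called SNAIL2-labelled, ZEB2-labelled, TWIST1, ZEB1, BRAF-on and BRAF-off. No array holds SNAIL2 or ZEB2 without activated BRAF, and none holds tamoxifen without delta-BRAF-ER. The time under tamoxifen, the promoter that drives each factor, the species of the factors and whether cells were cloned are not given in the sources used here. With 1 array a side there is no spread between replicates, so every difference is given by its size, without a test. Of 18193 genes with a probe set of their own, 11268 entered the comparison because at least 1 of the 2 arrays reached the floor, a signal of 63.7, the middle value of the non-control probe sets over the 6 arrays.

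SNAIL2, whose mouse gene is Snai2, and ZEB2 are zinc finger transcription factors of the Snail and ZEB families. Both bind E-box sequences of the form CAGGTG, mostly repress their targets, and are best known for driving the epithelial-mesenchymal transition. In the pigment lineage they are also normal components: Slug and ZEB2 are expressed in neural crest cells and melanocytes, whereas TWIST1 and ZEB1 are known for marking melanoma cells that have lost pigmentation. BRAF is the kinase upstream of MEK and ERK that is most often mutated in melanoma.

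The deposited values came scaled to a common level, since each array's mean after trimming 2% at either end was 500. At that scale 10867 genes reached the floor on the SNAIL2-labelled array and 10883 on the ZEB2-labelled array. The ratio of 3′ to 5′ signal, a measure of RNA integrity, was 1.44 on the SNAIL2-labelled and 1.54 on the ZEB2-labelled array for Actb, and 0.839 and 0.838 for Gapdh. The bacterial poly-A control transcripts, added before amplification, were 1.83-fold brighter on the SNAIL2-labelled array, with 24 of 24 probe sets higher, whereas the hybridisation controls added after amplification were 1.06-fold brighter, with 13 of 18 higher. Scaled to the poly-A controls, the median log2 ratio of all genes was -0.76 in place of 0.07, with 1 gene at least 2-fold higher and 3206 at least 2-fold lower with SNAIL2. All directions below are therefore relative to the common scale of the arrays. The poly-A scale lowers the ratios of all genes together. Under it the medians of the pigment and the cholesterol lists turn below 0, while those of the interferon and mitosis lists stay below 0. Lists already below 0 had to stay there, so this contrast does not set the lists apart. RNA per cell and the amount of control added were not measured here, and fewer cells of a type and less RNA per cell cannot be told apart in bulk RNA. All 8 pigment cell markers were at or above the floor on both arrays, and their summed signal was 135547 on the SNAIL2-labelled and 112366 on the ZEB2-labelled array, within a range of 2352 to 135547 over the 6 arrays.

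The introduced factors came first as a check of the labels. The brighter of the Snai2 probe sets gave 3142 signal units on the SNAIL2-labelled array and 4201 on the ZEB2-labelled array, against 4946 with TWIST1, 3547 with ZEB1, 4175 in BRAF-on and 3944 in BRAF-off cells. The second Snai2 probe set gave 407 and 1181. Snai2 signal was thus lower on the array labelled SNAIL2 in both probe sets, by 0.42 and 1.54 on the log2 scale. The brightest Zeb2 probe set gave 362 signal units on the SNAIL2-labelled array and 1132 on the ZEB2-labelled array, with 901 for TWIST1, 540.2 for ZEB1, 806 in BRAF-on and 953 in BRAF-off cells. That made the ZEB2-labelled array the highest of the 6 for this probe set and the SNAIL2-labelled array the lowest. The other Zeb2 probe sets at the floor or above gave 519 and 756, 692 and 699.9, and 108 and 380, each with the SNAIL2-labelled value first. Where these probe sets lie relative to the introduced sequences was not examined, so they do not settle the labels. Braf itself gave 715 and 746. The arrays are called by their labels throughout.

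The arrays with SNAIL2 and ZEB2 were close to each other. They were at least 2-fold apart in 427 genes, 3.79% of those entered, the fourth smallest number among the 15 pairs of arrays. The ZEB2-labelled array differed from BRAF-on in 265 genes and from BRAF-off in 149, the fewest of any pair. The SNAIL2-labelled array lay further away, with 1374 genes apart from BRAF-on and 1038 from BRAF-off. Against TWIST1 the SNAIL2-labelled array differed in 2176 genes and the ZEB2-labelled array in 894, and against ZEB1 in 2165 and 1411 genes. Between SNAIL2 and ZEB2 themselves the split was uneven: 77 genes (0.683%) were at least 2-fold higher with SNAIL2 and 350 (3.11%) at least 2-fold lower. Over all genes entered the log2 ratio was above 0 in 56.5% and below 0 in 43.5%, with a standard deviation of 0.47 over genes.

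The lower genes were brighter than the higher genes, and their differences were larger. The median signal of the lower genes was 335 on the SNAIL2-labelled and 896 on the ZEB2-labelled array, and 28 differed at least 4-fold. On the brighter side 224 of the 350 (64%) reached 500 signal units, near the 65.2% of all genes entered. The 77 higher genes had median signals of 269 and 103, only 22 of them (28.6%) reached 500, and 1 differed at least 4-fold. A floored array makes a fold a lower bound, which held for 19 of the higher and 30 of the lower genes. At a 3-fold threshold 4 genes were higher and 80 lower.

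**Figure D1:**
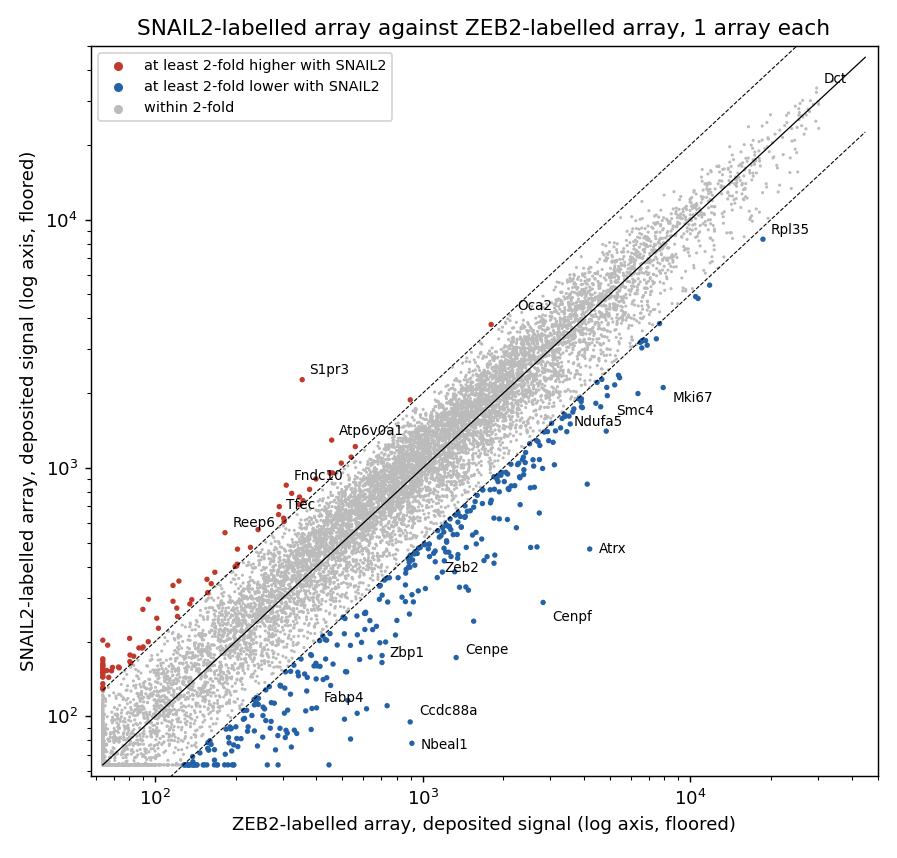
Signal of each of 11268 genes on the SNAIL2-labelled array (y axis) against the ZEB2-labelled array (x axis), both on log axes with values under the floor raised to 63.7. Red points are the 77 genes at least 2-fold higher and blue points the 350 genes at least 2-fold lower with SNAIL2; the solid line marks equality and the dashed lines 2-fold. The blue points reach much further from the line than the red ones, of which only S1pr3 lies beyond 4-fold.

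The 10 genes furthest lower with SNAIL2 were lowest of all 6 arrays on the SNAIL2-labelled array, while the ZEB2-labelled array sat near BRAF-on and BRAF-off. In Cenpf, Cenpe and Kif20b, given further on, the ZEB1 array was low as well. Nbeal1, a neurobeachin-like protein of the BEACH family, gave 77.9 signal units on the SNAIL2-labelled and 910 on the ZEB2-labelled array, with 1141 for TWIST1, 759.9 for ZEB1, 943 in BRAF-on and 903 in BRAF-off cells, an 11.7-fold difference. A second Nbeal1 probe set was lower by 1.83 on the log2 scale. Ccdc88a, which encodes the actin-binding signalling protein girdin, gave 94.9 with SNAIL2 and 897 with ZEB2, against 651 to 1202 on the other 4 arrays. Atrx, a chromatin remodeller that deposits histone H3.3, gave 472 with SNAIL2 and 4204 with ZEB2, against 2234 to 4277 on the others, and its second probe set differed by -2.69. In these 3 genes the SNAIL2-labelled array stood below all the other 5, while the ZEB2-labelled array lay inside the range of the other 4.

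Phip, a bromodomain protein that also binds insulin receptor substrates, gave 481 signal units with SNAIL2 and 2671 with ZEB2, against 1485 to 4040.0 on the other arrays. The log2 ratio was -2.47 in this Phip probe set, but -1.83 and -0.78 in the others. Ankrd12, an ankyrin repeat co-regulator, gave 81.0 and 537, and Ttc14, a tetratricopeptide repeat protein, 107 and 616. Ttc14 shows how far probe sets can differ, since its other 5 probe sets differed by -1.05 to -0.36. Outside the rule for named genes, and picked because 3 probe sets agreed, Rock1, a kinase that acts on the actin cytoskeleton below RhoA, gave 658 and 2725, with log2 ratios of -2.05, -2.07 and -2.01. Tmed5, a cargo receptor of the early secretory pathway picked in the same way, gave 860 and 4116, with log2 ratios of -2.26, -2.32 and -1.97.

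**Figure D2:**
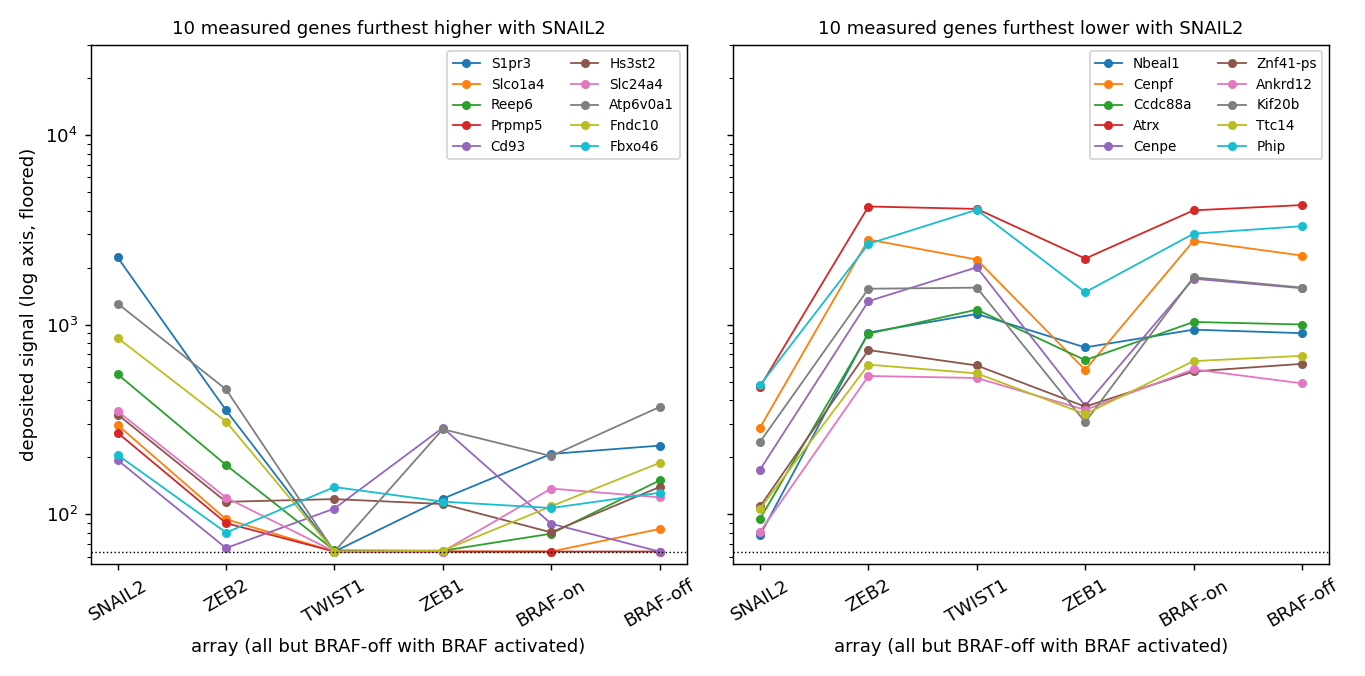
Deposited signal (log axis, values under the dotted floor raised to it) on all 6 arrays for the 10 genes furthest higher (left) and the 10 furthest lower (right) with SNAIL2 among genes measured on both arrays. In the right panel every line is lowest on the SNAIL2-labelled array and near its BRAF-on value on the ZEB2-labelled array; in the left panel S1pr3 stands at 2266 with SNAIL2 and 354 with ZEB2.

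Genes of mitosis and the kinetochore held some of the largest differences. With SNAIL2, 8 of the 44 genes measured passed 2-fold downward and none upward, against 3.11% and 0.683% of all genes. Below 0 were 34 of the 44, against 43.5% of all genes, and the median log2 ratio was -0.31, against 0.07. Cenpf, a large coiled-coil protein of the kinetochore and nuclear matrix, gave 287 signal units on the SNAIL2-labelled and 2815 on the ZEB2-labelled array, against 2206 with TWIST1, 578 with ZEB1, 2771 in BRAF-on and 2317 in BRAF-off cells. Cenpe, the kinesin that moves chromosomes to the spindle equator, gave 172 with SNAIL2 and 1332 with ZEB2, and 374 with ZEB1, while the remaining arrays gave 1559 to 2009. Kif20b, a kinesin of cytokinesis, gave 241 with SNAIL2, 1549 with ZEB2 and 307 with ZEB1, while the remaining arrays gave 1569 to 1781. The ZEB1 array was thus low for these 3 genes as well, though less so than the SNAIL2-labelled one, and the ZEB2-labelled array stayed with BRAF-on.

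Mki67, the proliferation antigen that coats mitotic chromosomes, gave 2107 with SNAIL2 and 7911 with ZEB2, and ZEB1 was lower still at 1357. Cenpk, a constitutive centromere protein, differed by -1.15 and Hmmr, a spindle-associated hyaluronan receptor, by -1.13, although the other 3 Hmmr probe sets ran from -1.12 to 0.37. The list did not move as a block. The SNAIL2-labelled array lay below the other 4 arrays in 6 of the 44 genes, against 26.4% of all genes. It lay above them in 13, against 36.8%. Aurkb and Bub1b, kinases of chromosome segregation and the spindle checkpoint, had log2 ratios of 0.13 and 0.30, the mitotic kinase Plk1 0.36, and Ncapd2, a condensin subunit, 0.54. Genes of DNA replication and S phase showed no such tail: none of 35 was 2-fold apart in either direction and the median was 0.12.

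The structural maintenance of chromosomes genes, whose products form the cohesin, condensin and Smc5/6 rings, were the gene family with the highest share of lower members among those counted. Smc4 of condensin gave 1993 signal units with SNAIL2 and 6367 with ZEB2, and its other probe sets differed by -2.49 and -2.16. Smc2, its partner in condensin, gave 2109 and 4868. Smc5 gave 327 and 1023, Smc6 801 and 1931, and the cohesin subunit Smc3 1251 and 2506. Other probe sets of Smc2 differed by -0.15 and -1.56, and those of Smc6 by -1.87 to -0.88. For Smc3 and Smc5 the other probe set differed by only -0.27 and -0.64. The sixth member, Smc1a of cohesin, gave 3780 and 4400. By the brightest probe set of each, 5 of the 6 were at least 2-fold lower, against 3.11% of all genes, with a median of -1.24. For Smc2, Smc3 and the proliferation antigen the ZEB1 array was lower than the SNAIL2-labelled one. The family was picked after its values were seen.

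The promoters of the mitotic genes are known for the cell cycle homology region, the sequence TTTGAA near the start site, through which the MuvB and DREAM complexes act. Promoters, here the 250 bases before and 50 after the start in RefSeq on GRCm38.p6, were at hand for 38 of the 44 genes, and TTTGAA or its complement TTCAAA stood in 28 of them (73.7%). The share was 11.5% of the promoters of all genes entered and 18.1% of all 27025 promoters in the table. It was 20.3% of the promoters of the 350 lower genes and 7.94% of those of the 77 higher genes. The Cenpf and Kif20b promoters are shown because these genes are among the furthest lower of the list and their promoters hold TTTGAA. The promoter of Cenpe, which differed more than Kif20b, held no TTTGAA, and neither did that of Cenpk. TTTGAA and the Snail and ZEB E-box CAGGTG are in capitals. Cenpf lies on the minus strand at chr1:189688037-189688336 and Kif20b on the plus strand at chr19:34922108-34922407.
Cenpf: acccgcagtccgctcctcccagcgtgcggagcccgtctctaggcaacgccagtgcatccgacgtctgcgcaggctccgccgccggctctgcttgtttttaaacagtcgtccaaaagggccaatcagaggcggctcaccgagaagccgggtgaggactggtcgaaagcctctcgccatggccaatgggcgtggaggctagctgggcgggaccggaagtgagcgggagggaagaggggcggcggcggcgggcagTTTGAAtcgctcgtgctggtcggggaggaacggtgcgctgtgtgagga
Kif20b: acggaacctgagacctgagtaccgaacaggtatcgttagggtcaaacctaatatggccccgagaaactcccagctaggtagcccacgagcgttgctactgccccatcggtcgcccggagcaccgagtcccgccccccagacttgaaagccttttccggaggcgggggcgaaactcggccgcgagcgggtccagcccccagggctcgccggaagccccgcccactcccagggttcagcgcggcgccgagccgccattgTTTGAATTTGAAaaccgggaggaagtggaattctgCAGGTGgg
Cenpf holds 1 such element and Kif20b 2 in tandem, together with 1 CAGGTG. Over the list CAGGTG or CACCTG stood in 3 of the 38 promoters (7.89%), against 16.7% of those of all genes entered. The same E-box stood in 20.6% of the promoters of the 77 higher genes and in 19.9% of those of the 350 lower genes, so its share was alike in both directions. A match is a run of letters and no measurement of binding.

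A list of large centrosomal, ciliary and chromatin proteins, written with earlier results in view, held 10 of 36 members at least 2-fold lower and none higher, against 3.11% and 0.683% of all genes, around a median of 0.01. Besides the genes above, Akap9, a scaffold of the centrosome and Golgi, gave 212 signal units with SNAIL2 and 790.5 with ZEB2, and Vps13a, a lipid transfer protein, gave 143 and 438, with a second probe set at -1.68. Cep290, a transition zone protein of the cilium, was under the floor with SNAIL2 and gave 197 with ZEB2, at least 3.09-fold lower. Other members ran the opposite way: Dync1h1, the heavy chain of cytoplasmic dynein, gave 10265 and 6033, Huwe1, a ubiquitin ligase, 4563 and 2901, and Lyst, which controls lysosome size, 1983 and 1317. Of 34 measured centrosomal genes with Cep symbols, picked after their values were seen, only Cep290 (2.94%) was at least 2-fold lower. That share was near the 3.11% of all genes, and the median of the 34 was -0.02. Transcript length was not analysed here.

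Of 271 zinc finger genes with Zfp symbols, 33 (12.2%) were at least 2-fold lower with SNAIL2, against 3.11% of all genes, and 3 at least 2-fold higher, against 0.683%. Above 0 were 140 of the 271, against 56.5% of all genes, and the median was 0.02, against 0.07. Zfp946 gave 97.3 signal units with SNAIL2 and 509.7 with ZEB2, against 268 to 633 on the other arrays. Zfp950 was under the floor with SNAIL2 and gave 446 with ZEB2, at least 7.0-fold lower. Zfp52 gave 332 with SNAIL2 and 1449 with ZEB2, against 1109.8 to 1300.1 on the others, so the ZEB2-labelled array was the highest of the 6 and the SNAIL2-labelled the lowest. Znf41-ps, a zinc finger pseudogene, gave 110.3 and 736 against 370.1 to 622. The 3 higher genes were Zfp341, Zfp668 and Zfp777, with Zfp777 at 699 and 291. Zinc finger genes have close relatives in the genome, so a probe set may read more than its named gene, and this family too was picked after its values were seen.

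Interferon-stimulated genes were lower on both arrays than on the other 4, and lower with SNAIL2 than with ZEB2. Of 36 measured members, 23 were below the other 4 arrays on both the SNAIL2- and the ZEB2-labelled array, 7 on the SNAIL2-labelled array alone and none above them on either. The shares over all genes were 13.8% below on both and 11.6% below with SNAIL2 alone. Between the factors 29 of 36 were below 0, against 43.5% of all genes, and 4 were at least 2-fold lower, against 3.11%, and none higher, with a median of -0.30. Zbp1, a cytosolic sensor of Z-form nucleic acids, gave 165 signal units with SNAIL2 and 704 with ZEB2, against 6175 with TWIST1, 4793 with ZEB1, 1673 in BRAF-on and 1173 in BRAF-off cells, though its second probe set differed by only -0.40. Isg20, an antiviral exonuclease, gave 258 and 891, against 996 to 3311 on the others. Gbp7, a guanylate-binding GTPase, gave 711 and 2311, against 2586 to 5842, and its second probe set differed by -1.42. Each of these 3 genes was lowest with SNAIL2, next lowest with ZEB2 and highest on the TWIST1 or the ZEB1 array.

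Iigp1, a GTPase that attacks pathogen vacuoles, gave 1154 and 2423, and Ifit1 and Ifit3, which bind foreign RNA, gave 1862 and 3689, and 2696 and 4823. Members near equality were Trim25, Oas3 and Tap1, with log2 ratios of 0.09, 0.10 and 0.11, and the transcription factor Irf7 at 0.21. Outside the list, Ifi27l2a gave 478 with SNAIL2 and 2529 with ZEB2, and among the inflammatory caspases Casp4 gave 198 and 691 and Casp12 448 and 1353. These last 3 were chosen after their values were seen. The core of the interferon-stimulated response element (GAAA, any 2 bases and GAAA again, on either strand) stood in 15 of 28 promoters of the list (53.6%), against 2.89% for all genes entered and 3.49% of the whole table. The Gbp7 promoter, at chr3:142530086-142530385 on the plus strand, is shown because both Gbp7 probe sets passed 2-fold and the promoter holds a match, which is in capitals.
Gbp7: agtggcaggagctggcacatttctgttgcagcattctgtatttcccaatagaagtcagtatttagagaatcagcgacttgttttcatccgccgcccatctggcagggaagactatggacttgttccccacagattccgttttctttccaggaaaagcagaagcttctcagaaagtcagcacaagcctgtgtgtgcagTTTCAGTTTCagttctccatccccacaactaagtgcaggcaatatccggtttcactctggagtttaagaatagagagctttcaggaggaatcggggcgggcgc

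Secreted inflammatory factors had a median of -0.31 over 15 measured members, with 12 below 0, against 43.5% of all genes. Only Ccl2 of the 15 passed 2-fold, downward, against 3.11% of all genes. Ccl2, the chemokine that draws monocytes, gave 564 signal units with SNAIL2 and 1272 with ZEB2, against 5450 with TWIST1, 4455 with ZEB1, 2644 in BRAF-on and 1097 in BRAF-off cells. Igfbp7, a secreted protein linked to oncogene-induced senescence, gave 1917 and 3207, below the other 4 arrays on both. Il6 was under the floor with SNAIL2 and gave 103 with ZEB2, at least 1.62-fold lower, too dim to weigh.

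Subunits of the mitochondrial respiratory chain and ATP synthase lay below the other 4 arrays on both the SNAIL2- and the ZEB2-labelled array in 29 of 51 cases, against 13.8% of all genes. Between the factors 39 of 51 were below 0, against 43.5% of all genes, 5 were at least 2-fold lower, against 3.11%, and none higher, and the median was -0.27. Ndufs4, an accessory subunit of complex I, gave 825 signal units with SNAIL2 and 2085 with ZEB2, against 2380 to 2618 on the others. Its other probe sets differed by only -0.90 and -0.43. Ndufa5 gave 1400 and 3452, with a second probe set at -1.43, Ndufa1 3042 and 6581, Atp5l 3119 and 6893, and Atp5e 2210 and 4480. Some core subunits ran the other way: Uqcrc1 of complex III gave 10091 and 6608, Ndufv1 of complex I 5912 and 4309, and Ndufs8 10853 and 6993, although the other 5 Ndufs8 probe sets lay between -0.15 and 0.02. Among 76 mitochondrial ribosomal proteins, picked after their values were seen, 7 (9.21%) were at least 2-fold lower, against 3.11% of all genes, and none higher.

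Cytoplasmic ribosomal proteins had a median of -0.22 over 32 measured members, with 3 at least 2-fold lower and 1 higher, against 3.11% and 0.683% of all genes. Rpl37 gave 1029 signal units with SNAIL2 and 3103 with ZEB2, Rps6 552 and 1198, and Rpl35 8334 and 18659.8. Rpl35 is uncertain, since its other probe sets ran from -1.21 to 0.10 and its ratio was 0.10 without probe sets that match several transcripts. Rps27 was higher, at 471 and 203. These genes have many processed copies in the genome that a probe set cannot always tell apart.

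Pigment genes showed the mirror image: both arrays lay above the other 4, and the SNAIL2-labelled array was the higher of the pair. Over the 4 pigment lists together, 34 of 37 measured genes were above 0, against 56.5% of all genes, with a median of 0.41 and a range of -0.10 to 1.17. Above the other 4 arrays on both were 30 of 37, against 17.4% of all genes. Only 1 gene, Tfec, passed 2-fold, against 0.683% of all genes. Tfec, a relative of Mitf in the same basic helix-loop-helix family, gave 648 signal units with SNAIL2 and 289 with ZEB2, against 1.16 with TWIST1, 30.6 with ZEB1, 162 in BRAF-on and 336 in BRAF-off cells. Mitf, the master regulator of melanocytes, gave 14255 and 11060.3, against 7191 at most elsewhere, with a second probe set at 1.13, and Sox10, which activates Mitf, gave 7757 and 5182.

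Among the melanin enzymes and fibril proteins, all 6 were above the other 4 arrays on both, with a median of 0.27. Tyr, the rate-limiting enzyme of melanin synthesis, gave 9714 signal units with SNAIL2 and 7467 with ZEB2, against 28.7 with TWIST1, 922 with ZEB1, 2583 in BRAF-on and 5366 in BRAF-off cells. Dct and Tyrp1, the later melanin enzymes, gave 33845 and 29621, and 29340.3 and 25679, with smaller ratios near the top of the signal range. The differences were wider among melanosome proteins, with a median of 0.48 and 17 of 18 above 0, against 56.5% of all genes. Oca2, the melanosomal chloride channel protein, gave 4105 with SNAIL2 and 2118 with ZEB2, against 17.5 with TWIST1, 252 with ZEB1, 652 in BRAF-on and 1351 in BRAF-off cells. Gpr143, the receptor behind ocular albinism, gave 2643 and 1410, and Mlph, which ties melanosomes to myosin Va, 3915 and 2118. The receptors Kit, for stem cell factor, and Mc1r, for melanocortin, gave 2761 and 1675, and 5806 and 3549.

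The M-box core CATGTG, which MITF binds, or its complement CACATG, stood in 8 of the 28 pigment promoters at hand (28.6%), against 8.05% for all genes entered and 14.1% of the whole table, and the E-box CACGTG, which reads the same on both strands, stood in 5 (17.9%), against 10.3% and 7.24%. Tyr and Oca2 are shown as an enzyme and a melanosome protein whose promoters hold a match, in capitals, with Tyr on the minus strand at chr7:87493463-87493762 and Oca2 on the plus strand at chr7:56239509-56239808.
Tyr: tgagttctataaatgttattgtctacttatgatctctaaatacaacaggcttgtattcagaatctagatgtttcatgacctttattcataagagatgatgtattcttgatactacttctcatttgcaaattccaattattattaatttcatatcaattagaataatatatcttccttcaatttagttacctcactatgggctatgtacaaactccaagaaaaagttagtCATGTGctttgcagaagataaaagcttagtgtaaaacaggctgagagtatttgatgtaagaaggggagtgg
Oca2: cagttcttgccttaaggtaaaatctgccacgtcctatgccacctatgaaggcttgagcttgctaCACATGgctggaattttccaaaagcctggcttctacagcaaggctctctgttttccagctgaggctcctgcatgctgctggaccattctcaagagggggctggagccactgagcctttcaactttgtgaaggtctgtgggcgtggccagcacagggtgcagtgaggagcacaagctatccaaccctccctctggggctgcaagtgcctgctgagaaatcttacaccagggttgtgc
Oca2 carries the complementary form. The Snail and ZEB E-box was in 1 of the 28 pigment promoters (3.57%), and neither of these holds it.

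**Figure D3:**
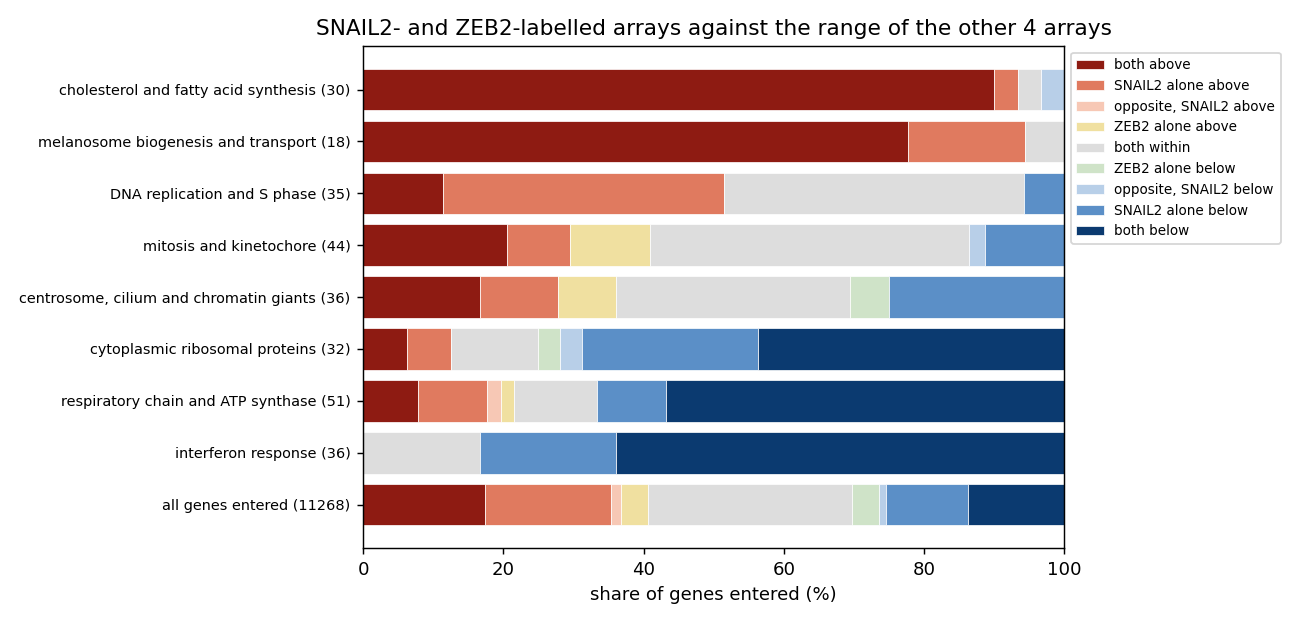
For 8 gene lists and all genes, the share of genes for which the SNAIL2-labelled and ZEB2-labelled arrays lay above, within or below the range of the other 4 arrays. Cholesterol and melanosome genes are mostly above on both (27 of 30 and 14 of 18), interferon and respiratory genes mostly below on both (23 of 36 and 29 of 51), and the large centrosome and chromatin proteins include 9 of 36 with SNAIL2 alone below and none with both below.

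Genes of cholesterol and fatty acid synthesis followed the pigment genes. Both arrays were above the other 4 in 27 of 30 measured members, against 17.4% of all genes, and 24 of 30 were above 0, against 56.5%, with a median of 0.31 and none 2-fold apart. Dhcr7, the last enzyme of cholesterol synthesis, gave 2682 signal units with SNAIL2 and 1454 with ZEB2, against 617 to 828 on the other arrays. Mvd of the mevalonate pathway gave 1052 and 584, and Fasn, which makes palmitate, 7941 and 4701. The order was turned for Idi1 and Elovl6, where both arrays were above the others but ZEB2 was the higher: Idi1, which isomerises isopentenyl diphosphate, gave 2630 and 3058, and Elovl6, a fatty acid elongase, 1698 and 2130. The sterol response element core TCACNCCAC or its complement was in 1 of 23 promoters (4.35%), against 1.01% for all genes entered and 1.22% of the table, too few to compare. For lysosome and autophagy genes the median was 0.21 over 30 members, none of them 2-fold apart.

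**Figure D4:**
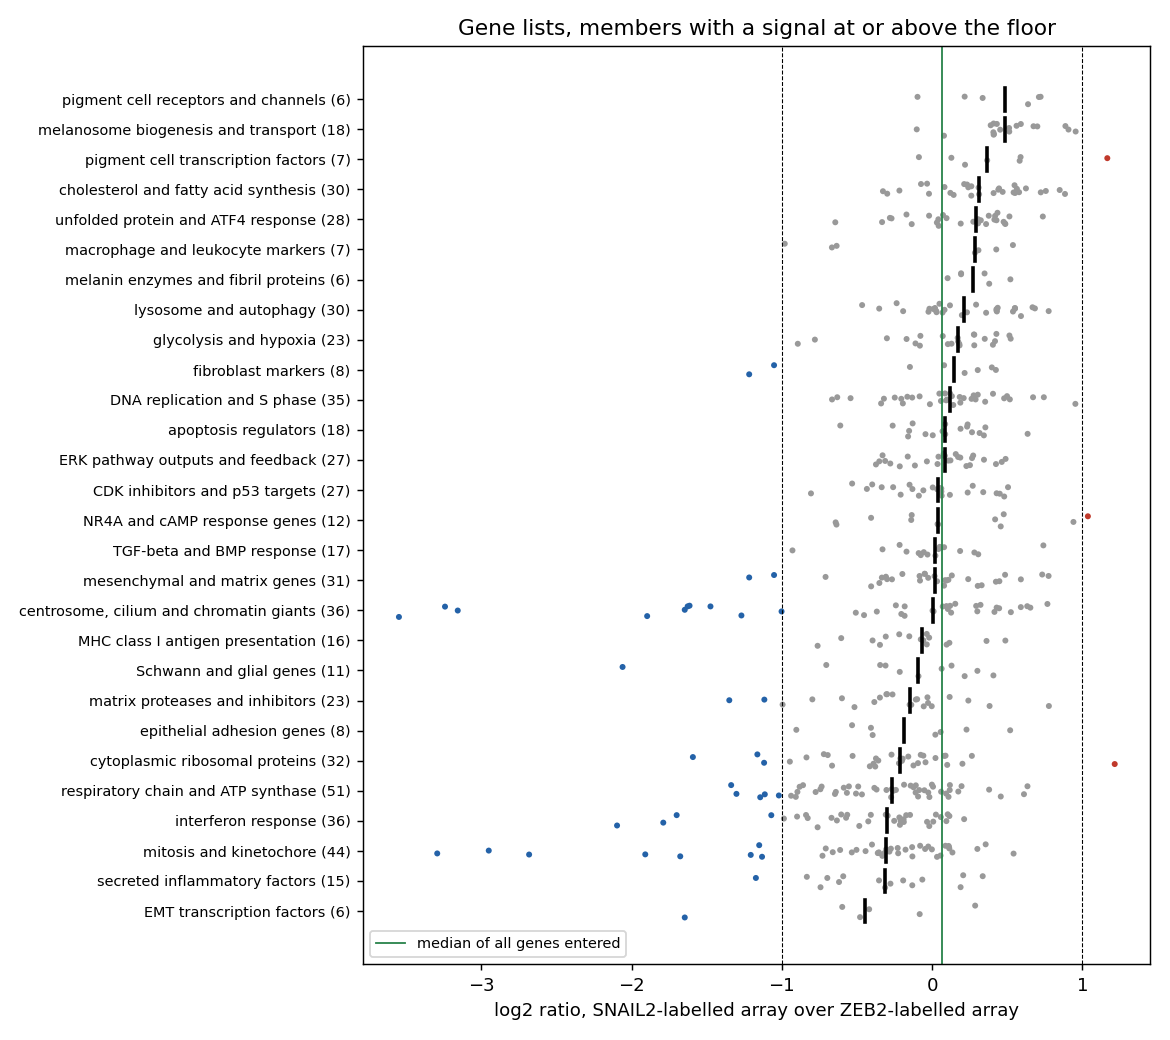
Log2 ratio of the SNAIL2-labelled over the ZEB2-labelled array (x axis) for each measured member of 28 gene lists, sorted by median (black bars), with the number of members in parentheses. Red and blue points are at least 2-fold higher and lower; dashed lines mark 2-fold and the green line the all-gene median of 0.07. The 4 pigment lists have medians of 0.27 to 0.49, the cholesterol list lies among them at 0.31, and mitosis and the large centrosome and chromatin proteins have long tails to the left.

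The genes higher with SNAIL2 were few, and S1pr3 stood apart from the rest. S1pr3, a receptor for sphingosine 1-phosphate that couples to several G proteins, gave 2266 signal units with SNAIL2 and 354 with ZEB2, against 17.8 with TWIST1, 121 with ZEB1, 208 in BRAF-on and 231 in BRAF-off cells. That is 6.40-fold, and a second probe set differed by 2.16 on the log2 scale. Atp6v0a1, a membrane subunit of the vacuolar proton pump, gave 1294 and 457, against 63.4 to 368 on the others, but its second probe set differed by only 0.39. Fndc10, a fibronectin type III domain protein, gave 852 and 309, and Reep6, which shapes the endoplasmic reticulum, 548 and 182. In all 4 both arrays were above the other 4 arrays and SNAIL2 was the higher.

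Dimmer members were Slc24a4, an exchanger of sodium and calcium, at 350.2 and 123, Hs3st2, a heparan sulfate sulfotransferase, at 336 and 117, and Slco1a4, an organic anion transporter, at 296 and 94.4. Hs3st2 is uncertain, since its probe set is of the kind that matches several transcripts. The other Hs3st2 probe sets lay under the floor on both arrays. Prpmp5, a proline-rich protein, gave 269 and 90.0, and Cd93, a lectin-like receptor of endothelium, 193 and 66.5, below the 286 of the ZEB1 array. Fbxo46, an F-box protein, gave 206 with SNAIL2 and 80.2 with ZEB2, against 108 to 139 on the others, so the 2 factors lay on opposite sides of the other arrays. Among the bounds, Lce3c, a cornified envelope protein, was at least 3.18-fold higher and Lrat, which esterifies retinol, at least 2.52-fold.

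Genes that changed with BRAF were chosen on the BRAF-on and BRAF-off arrays alone, so their values with SNAIL2 and ZEB2 played no part in the choice. Of 11200 genes in that comparison, 116 (1.04%) were at least 2-fold higher and 43 (0.384%) at least 2-fold lower in BRAF-on cells. Of the 116, 113 entered here, and 90 (79.6%) were below 0 between SNAIL2 and ZEB2, against 43.5% of all genes, with a median of -0.35. At least 2-fold lower were 19 (16.8%), against 3.11% of all genes, and 1, Ino80b, was higher. After flooring, the SNAIL2-labelled array was at or under BRAF-off in 26 of the 113 and the ZEB2-labelled array in 4. Some of these are ties made by the floor, since 2 signals under it count as equal. Lat2, for one, gave 49.9 with SNAIL2 and 2.65 in BRAF-off cells before flooring. The share over all genes was not counted. Most genes higher in BRAF-on cells were thus lower with SNAIL2 than with ZEB2.

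Fabp4, a fatty acid carrier, gave 108 signal units with SNAIL2 and 401 with ZEB2, against 3616 with TWIST1, 6449 with ZEB1, 959 in BRAF-on and 15.4 in BRAF-off cells. Mmp1a, an interstitial collagenase, gave 170.1 and 433, against 946 in BRAF-on and 10.1 in BRAF-off cells, and Mmp10, stromelysin 2, gave 637 and 1382, against 2606 and 38.4. For these 3 genes both factors lay between BRAF-on and BRAF-off, SNAIL2 nearer to BRAF-off. The interferon-inducible Ifi213 gave 75.9 and 241, against 365 in BRAF-on and 151 in BRAF-off cells, so SNAIL2 lay under BRAF-off and ZEB2 between. Of the 43 genes lower in BRAF-on cells, 26 were above 0, a share near the 56.5% of all genes, and the median was 0.28. At least 2-fold higher were 4, against 0.683% of all genes, and 1, Cnmd, was lower. Bcan, a proteoglycan of the lectican family, gave 955 and 459.9, against 377 in BRAF-on and 1136 in BRAF-off cells.

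The genes called on this comparison could also be read on arrays that it did not use. Of the 346 lower genes measured there, 58 (16.8%) passed 2-fold downward on the ZEB1 relative to the BRAF-on array, against 3.93% of 11614 genes, and 30 (8.67%) passed it upward, against 4.49%. On the TWIST1 array 7 of the 346 (2.02%) passed 2-fold downward relative to the BRAF-on array, against 2.02% of 11334 genes, and 25 (7.23%) upward, against 2.03%. Of the 66 higher genes measured for ZEB1 7 (10.6%) were higher and 4 (6.06%) lower, and of the 63 measured for TWIST1 3 (4.76%) were higher and 7 (11.1%) lower. Both comparisons share the BRAF-on array. Cenpf, Cenpe, Kif20b and Mki67 are among those lower with ZEB1, and Zbp1, Isg20 and Iigp1 among those higher with it.

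Other probe sets of the same genes gave a further reading of the same arrays. For 138 of the 350 lower genes, 227 other probe sets reached the floor on both arrays, of which 207 had the same sign, 110 passed 2-fold as well and none passed 2-fold the other way, with a median of -0.98. For 15 of the 77 higher genes there were 20, of which 16 had the same sign and 1, that of S1pr3, passed 2-fold, with a median of 0.41. Probe sets of a gene share the RNA and the array and are no replicates.

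**Figure D5:**
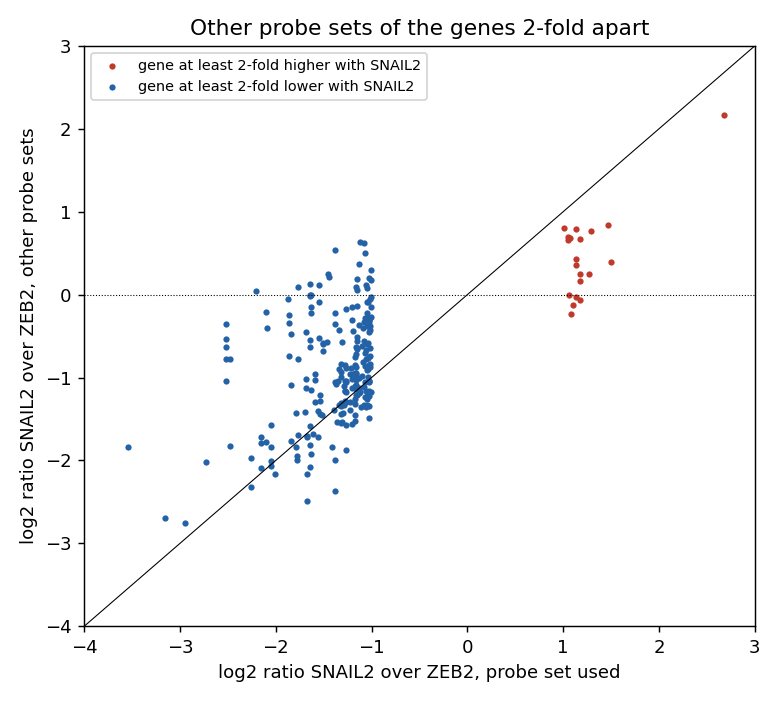
Log2 ratio of SNAIL2 over ZEB2 for other probe sets of the genes called (y axis) against the probe set used (x axis), with red for higher and blue for lower genes and the solid line for equality. Most blue points stay below 0 (207 of 227), and of the 20 red points only that of S1pr3 passes 2-fold on the y axis.

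The remaining lists showed small differences. Proteases of the matrix and their inhibitors had a median of -0.15 over 23 members, with 19 below 0, against 43.5% of all genes. Only 2 of the 23, the BRAF-induced Mmp1a and Mmp10, were at least 2-fold lower, against 3.11% of all genes. Genes of the unfolded protein and ATF4 response had a median of 0.29 over 28 members and none 2-fold apart, and ERK outputs and feedback genes 0.08 over 27 and none 2-fold apart. Mesenchymal and matrix genes had a median of 0.02 over 31 members. Of these 2, Dcn and Postn, were at least 2-fold lower, against 3.11% of all genes. Epithelial adhesion genes had none 2-fold apart among 8. Of the 6 measured transcription factors of epithelial-mesenchymal transition only Zeb2 passed 2-fold, downward, against 3.11% of all genes. Twist1 gave 138 and 209 and Zeb1 121 and 168. Cdh19, a cadherin of Schwann cell precursors, gave 446 with SNAIL2 and 1858 with ZEB2, against 909 to 1917 on the others. Of the markers of other cell types, 5 of 8 for fibroblasts reached the floor on each array, 2 and 3 of 7 for macrophages and leukocytes, 2 and 1 of 5 for keratinocytes and 2 and 1 of 5 for endothelium. The summed signal of 8 fibroblast markers was 10111 and 8913 (8658 to 20911 over the 6 arrays), of 7 macrophage and leukocyte markers 489.9 and 421, of 5 keratinocyte markers 301 and 414 and of 5 endothelial markers 248 and 233. Their part in the results was not tested.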

How the data were processed

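Per the labels' protocols, 100 ng of total RNA was amplified by 3′ in vitro transcription for 1-colour Affymetrix arrays. Per the submitters' processing notes, the authors made the deposited linear intensities with MAS5 and Affymetrix Expression Console 1.1. No detection calls were used here. Arrays were grouped by their labels.

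Of 45101 probe sets, 64 were controls, 34945 had 1 gene symbol in the platform annotation, 932 several and 9160 none. RefSeq (GRCm38.p6) held 34741 of the 34945 and gave promoters, but no coordinates of probe sets. For each gene the probe set brightest on average (log2, 6 arrays) was used. Intensities under the floor, the 50th percentile (63.7), were raised to it before log2. Called genes differed at least 2-fold, and no test was possible with 1 array a group. Python 3.11.15 with pandas 2.3.3 and numpy 2.4.6 did the counting, which was checked on simulated data. Precision is limited by the number of arrays.

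Genes were named by a rule: in each direction the 10 furthest genes with both arrays over the floor and the 5 furthest bounds, up to 8 members (4 where none is 2-fold apart) of each of 30 lists, the factors themselves and the 5 furthest on opposite sides of the other arrays. Other genes named, mostly list members near equality or in the opposite direction, were chosen after their values were seen. Members, lists and this rule were chosen with earlier results of these data known. Gene families, positions against the other arrays, the genes that changed with BRAF, the readings on ZEB1 and TWIST1, the promoter motifs, the poly-A scale and the demand for 1 sign over all probe sets were chosen after values were seen. Alternatives covered scaling, floor, probe set choice and size.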

Additional observations from a re-analysis of the deposited data

Results flagged for a closer look

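In data outside the comparison of genes, the poly-A control probe sets were brighter on the SNAIL2-labelled array than on the ZEB2-labelled array by 1.83-fold. Their geometric mean signal was 763 with SNAIL2 and 416 with ZEB2, against 274 to 432 on the other 4 arrays. Among the 10092 probe sets without a single named gene, which no comparison used, 3391 reached the floor, and 287 of these (8.46%) were at least 2-fold lower and 51 (1.50%) at least 2-fold higher with SNAIL2. The share lower was above the 3.11% of named genes. The 2 shares are not alike, since one counts single probe sets and the other genes, each by its brightest probe set. No group held enough arrays to look for an array far from its group.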

How the results depend on the processing

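The main counts were 77 higher and 350 lower genes with SNAIL2. The higher count was 39 with the floor at the 60th percentile, 8 at the 75th, 1726 without a floor, 28 with the floor as a pseudocount, 1 on the poly-A scale and 4 at 3-fold. The lower count was 278 with the floor at the 60th percentile, 165 at the 75th and 240 with the floor as a pseudocount. It was 2084 without a floor, 3206 on the poly-A scale and 80 at 3-fold. Without a floor the share of higher genes among those called was 45.3%, and at the 75th percentile 4.62%. Under the other alternatives, chosen from quantile normalization, centring, probe set choice and 1 sign over all probe sets, the higher count lay between 69 and 113 and the lower between 313 and 382. Taking the median over a gene's probe sets, 43 of the 77 and 221 of the 350 were called again.

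On the poly-A scale, added after seeing the data, the medians turned to -0.60 for melanin enzymes, -0.36 for melanosome genes and -0.56 for cholesterol genes, and were -1.18 for interferon, -1.15 for inflammatory factors, -1.01 for proteases and -1.18 for mitosis genes, against -0.76 for all genes. The inflammatory median was -0.14 with the pseudocount. Rpl35 turned to 0.10 without probe sets that match several transcripts. The cause was not tested in any of these. Under the 8 other alternatives that give a median, the pigment and cholesterol medians stayed above 0 and those of the interferon, inflammatory, protease and mitosis lists below 0. The 2 alternatives by protein length were not run, since no table of proteins was used here. No paired analysis was possible because each group holds 1 array. The median signal of the 77 higher genes was 269 with SNAIL2 and 103 with ZEB2, at a floor of 63.7.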
